A study of Mus musculus with 14 samples.

Results

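The genes described are 8 that mark the enteric nervous system, the glial genes S100b, Gfap and Sox10 and the neuronal genes Elavl4, Uchl1, Ret, Vip and Nos1. They were picked by name, as all probes that are not controls and carry one of these gene names, and gave 11 probes for 8 of the 36161 names on the array. Expression was measured in 14 samples of 5 groups, 1 array each. Healthy small intestine (3 arrays) came from C57BL/6J mice, and adenomas (3) and the tissue adjacent to them (2) carried the APCmin/+ genotype, in which mice develop intestinal adenomas. Colon (3) was labelled C57BL/6J, and CT26 (3) is a mouse colon carcinoma cell line from BALB/c, held by the American Type Culture Collection and grown without other cells. The wild-type mice were adult, all mice had the C57BL/6J background, and the labels name no treatment, although Apc Min/+ mice that suffered received the analgesic buprenorphine. The tissues were labelled as whole tissue, and all 10 smooth muscle genes of a marker list were well above background on every small intestine, adjacent and colon array. By the study's list of samples, the small intestine arrays came from different mice and all adenoma and adjacent arrays from 1 mouse. A p-value between adenomas and adjacent tissue therefore measures a spread between pieces of tissue of that mouse and not between animals. Where either is set against small intestine, a difference cannot be told apart from a trait of that mouse. The same list places 1 colon sample under an Apc Min/+ mouse, and the study's methods name such mice as a source of normal colon, so the genotype behind the colon arrays is not settled. Every group was spread over the same 2 slides.

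The enteric nervous system is a network of neurons and glia in the gut wall, lying in the myenteric plexus between the muscle layers and in the submucosal plexus, and it controls motility, secretion and blood flow. Its cells descend from neural crest that enters the gut and needs the receptor tyrosine kinase Ret, with its ligand GDNF, and the transcription factor Sox10, which is kept in glia. Mature neurons contain the RNA-binding protein HuD, made by Elavl4, and the ubiquitin hydrolase PGP9.5, made by Uchl1. Inhibitory motor neurons release nitric oxide, made by the enzyme Nos1, together with the peptide made by Vip. The calcium-binding protein S100b and the intermediate filament protein Gfap are the usual markers of enteric glia, although S100b is also made by some cells outside the nervous system.

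The array carried 1 probe of 60 bases for each gene except Elavl4 (2) and Gfap (3), and each gene's level is that of its brightest probe. The probes of S100b, Gfap and Elavl4 are shown by stretches of 30 bases, since the result for S100b rests on 1 probe while the probes of Elavl4 and Gfap did not give the same result. Positions are on NCBI37/mm9 as the scanner files give them, and the capitals mark the longest run of alternating T and G.
Elavl4, brightest probe, bases 21 to 50: gtccttctgtTGTGTGTGTGTatgtgtaca
Elavl4, other probe, bases 1 to 30: ctttaccaccttccttgaaggtgggtcttt
Gfap, brightest probe, bases 1 to 30: ggttatattaacagagctagcctatgctaa
Gfap, probe of the same transcript, bases 1 to 30: caaaaggctcacaatacaagttgtcccaat
Gfap, probe of another transcript, bases 1 to 30: tttgaggaactgaaacgtgttgtgttcaag
S100b, bases 1 to 30: gaagctggacttgaggctttctaacttgca
Both Elavl4 probes were annotated to the same transcript on the minus strand of chromosome 4, the brightest at chr4:109877455-109877514 and the other at chr4:109878558-109878617. The run of 11 bases in the first is found, on the probe strand, in 142 of 55681 probes (0.255%), and its part in the signal was not tested. The Gfap probes lie on the minus strand of chromosome 11, the brightest at chr11:102751813-102751872, the other of that transcript at chr11:102752726-102752785 and that of the other transcript at chr11:102748864-102748923. The S100b probe lies on the plus strand at chr10:75723783-75723842. The remaining probes were at chr15:78985518-78985577 for Sox10, chr6:118101791-118101850 for Ret, chr10:4699238-4699297 for Vip and chr5:118402831-118402890 for Nos1. The 60 bases of the Uchl1 probe span 1092 bases of chromosome 5, from 67073886 to 67074977. Whether a probe lies in coding or untranslated sequence was not given in the sources used here.

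Levels are given as the log2 of the background-subtracted signal minus the 75th percentile of the array, so that 0 is the 75th percentile, and they are compared between samples for the same probe and not between genes. Only probes that the scanner software marked as well above background throughout 1 of the 2 groups compared, or both, were tested. To be called, a gene had to differ by 1.2 or more on the log2 scale in limma, with p no higher than 0.01 after Benjamini-Hochberg adjustment over all probes tested. The share of probes well above background ran from 46.9% on colon replicate 3 to 58.2% on adenoma replicate 3. This array also went against its label. Its summed signal over 10 enterocyte genes of the small intestine, relative to the 75th percentile, was 1780, against 114 and 190 on the other colon arrays and 1710 to 4750 on the small intestine arrays. Its sum over 6 colonocyte genes was 123, against 325 and 426 on the other colon arrays and 20.7 to 35.2 in small intestine. Results for the 8 genes and the neural gene lists in comparisons with colon are therefore given with and without this array.

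S100b was the only member called in adenomas. Its level was 0.30, 0.25 and 0.07 on the adenoma arrays, against -1.78, -1.29 and -2.71 in small intestine. It was -1.01 and -1.44 in adjacent tissue. The 3 adenoma arrays lay together above every small intestine and adjacent array, and the latter groups overlapped. In such bulk samples, more cells of a type and more RNA per cell cannot be told apart. Against small intestine the log2 fold change was 2.13 (SE 0.35, 95% interval from 1.31 to 2.96), a 4.39-fold difference with an adjusted p of 0.00278 by limma. Of the 6 members tested, S100b alone was called higher, where 10.9% of all probes tested were, and none was called lower. Gfap and Nos1 were too close to background to be tested. Against adjacent tissue the log2 fold change was 1.43 (SE 0.19), or 2.70-fold, with an adjusted p of 0.00923 by limma, and S100b was again the 1 of 6 members called higher, where 2.27% of all probes were. Both comparisons use the same adenoma arrays.

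The difference in S100b from small intestine lost the call when any 1 adenoma array was left out (adjusted p from 0.0109 to 0.0149), with log2 fold changes of 2.09 to 2.20. Between adenomas and adjacent tissue, the call was lost when any 1 array was left out (adjusted p from 0.0138 to 0.0539), with slide as a block (0.0206), with no filter on dim probes (0.0348), with all 5 groups in 1 fit (0.183) and under normexp background correction (log2 fold change of 1.18). Within slide 1 the difference from adjacent tissue was 1.2 and within slide 2 it was 1.69, and that from small intestine was 2.43 and 1.54, all on the log2 scale. In colon, S100b was 0.42, -0.28 and -1.26 on replicates 1, 2 and 3, so that the first array was above the adenomas and the range of colon overlapped those of adenomas and adjacent tissue. Ordered by mean, the tissues ran adenoma, colon, adjacent tissue and small intestine, and each overlapped the next. CT26 was below all of them, at -4.69, -6.33 and -5.18, none of them well above background.

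**Figure D1:**
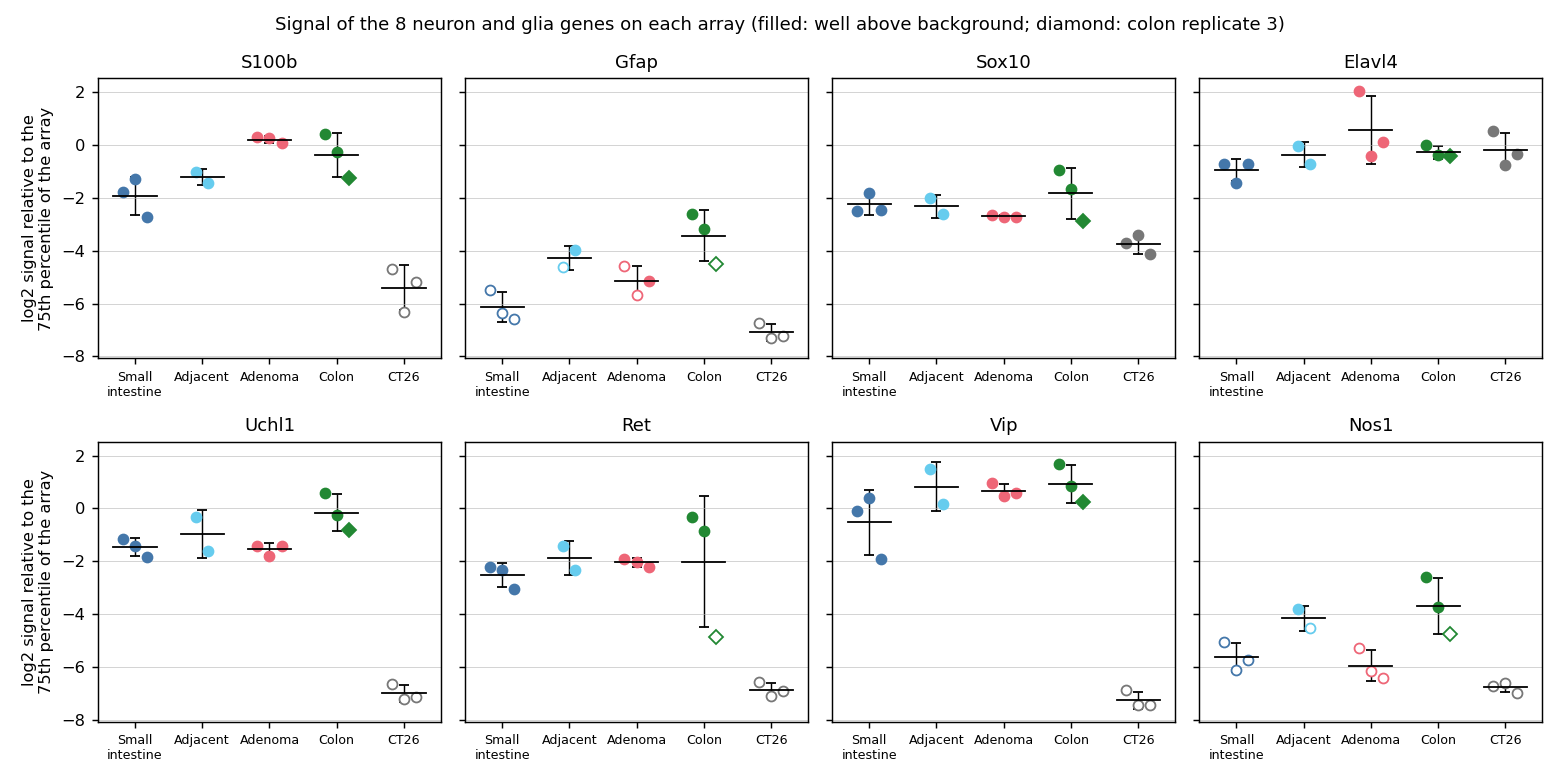
Level of each of the 8 genes (brightest probe, log2 signal relative to the 75th percentile of the array) on the 14 arrays by group. Points are arrays, open where the probe was not well above background, bars are means with SD, and the diamond is colon replicate 3. S100b on the 3 adenoma arrays (0.07 to 0.30) sits above all small intestine and adjacent arrays, while Sox10 does not.

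Sox10 was not called in adenomas. It was -2.63, -2.71 and -2.73 on the adenoma arrays, -2.48, -1.80 and -2.47 in small intestine and -2.0 and -2.62 in adjacent tissue. The adenoma arrays were the lowest of these tissues, by a small margin, and small intestine and adjacent tissue overlapped. The log2 fold change against small intestine was -0.44 (SE 0.22, adjusted p of 0.132 by limma), and against adjacent tissue it was -0.38 (SE 0.22, adjusted p of 0.251 by limma). Neither was called. By mean, colon was followed by small intestine, adjacent tissue and adenomas, and in this order the adenomas alone did not overlap their neighbour among the tissues.

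Gfap was close to background. Its brightest probe was well above background on adjacent replicate 2 (-3.96), adenoma replicate 3 (-5.14) and colon replicates 1 and 2 (-2.62 and -3.17), and on no small intestine or CT26 array. It was therefore not tested in any comparison on all arrays. Adenomas were above small intestine by 1.0 on this probe and by 0.62 on that of the other transcript, and the remaining one had a log2 fold change of -0.97, with overlapping ranges on each. The probe of the other transcript was well above background on colon replicates 1 and 2 alone, and the remaining probe on no array. By mean, the brightest probe and that of the other transcript were highest in colon (-3.43 and -4.56).

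Of 14 other glial genes, 9 were tested between adenomas and small intestine, where 3 were called lower and 0 higher, with a median log2 fold change of -0.95 against -0.15 over all probes, of which 10.9% were called lower. Those called were Pmp22, a myelin protein gene that is also active outside glia, at 2.22 to 3.08 in adenomas and 6.60 to 7.33 in small intestine (log2 fold change of -4.24, SE 0.29, adjusted p of 0.000122 by limma), Entpd2, an ATP-hydrolysing enzyme of enteric glia (-2.03, SE 0.20), and Erbb3, the neuregulin receptor (-1.32, SE 0.28). Pmp22 was also low in adjacent tissue, at 3.65 and 0.76. Against adjacent tissue, 0 of 10 tested genes were called and 9 of 10 had a negative log2 fold change, with a median of -1.17 against -0.05 over all probes. At an unadjusted p under 0.05 were 5 of 10, and 38.1% of all probes.

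Elavl4 could not be given 1 level, as its probes differed. On the brightest probe it was -0.70, -1.43 and -0.70 in small intestine and -0.04 and -0.70 in adjacent tissue. In adenomas it was 2.04, -0.40 and 0.10, with replicate 1 far above the other arrays. In colon it was 0.02, -0.39 and -0.43, and in CT26 0.52, -0.74 and -0.33. Neighbouring groups in the order of means overlapped, while adenomas did not overlap small intestine. That difference, a log2 fold change of 1.52 (SE 0.61, adjusted p of 0.0713 by limma), was not called and was 0.79 without adenoma replicate 1. No other comparison was called. The other probe was well above background on all 3 colon arrays (-2.55, -3.66 and -3.23), on small intestine replicate 1 (-4.00) and on adjacent replicate 1 (-3.82), and on no adenoma or CT26 array. On this probe Elavl4 was lower in CT26 than in colon by at least 3.56-fold (adjusted p of 0.000118 by limma). The probe passed the filter through colon alone, which set its direction. The brightest probe, well above background throughout both groups, gave a log2 fold change of 0.09 (SE 0.39, 95% interval from -0.81 to 0.99).

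The levels of Uchl1 in small intestine and adenomas overlapped. They were -1.15, -1.43 and -1.84 in small intestine and -1.43, -1.80 and -1.41 in adenomas, with a log2 fold change of -0.07 (SE 0.23, 95% interval from -0.61 to 0.47). Adjacent tissue was at -0.34 and -1.61, and adenomas were lower by a log2 fold change of -0.57 that was not called (SE 0.39, adjusted p of 0.322 by limma). Colon had the highest levels, 0.59, -0.25 and -0.82, all above the small intestine arrays. By mean, the order of the tissues was colon, adjacent tissue, small intestine and adenomas, each overlapping the next. Uchl1 was not well above background on any CT26 array.

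Of 20 further neuronal genes, 18 were tested between adenomas and small intestine. Snap25, a vesicle fusion protein gene of neurons and endocrine cells, was called lower, at 1.91, 2.97 and 2.99 in adenomas and 5.11, 6.03 and 6.07 in small intestine (log2 fold change of -3.11, SE 0.39, adjusted p of 0.000914 by limma). None was called higher, 4 of 18 had a positive log2 fold change, and the median was -0.69, against -0.15 over all probes. In this comparison 10.9% of all probes were called in each direction. Against adjacent tissue the median was -1.12 and 17 of 18 were negative, with 10 at an unadjusted p under 0.05 (38.1% of all probes), and none was called lower, where 1.71% of all probes were. Nefl, a neurofilament gene, was the exception, at -1.84, -1.76 and -1.85 in adenomas against -3.62 and -4.31 in adjacent tissue, and was called higher (log2 fold change of 2.15, SE 0.23, adjusted p of 0.00602 by limma). Smooth muscle genes moved beside these lists. All 10 had a negative log2 fold change in adenomas against both small intestine (median -1.49, 3 called lower) and adjacent tissue (median -1.54, 0 called lower). Their summed signal was 101 to 123 in adenomas, 156 and 618 in adjacent tissue and 152 to 540 in small intestine. Of 5 endothelial genes 3 were called higher in adenomas than in small intestine (median 2.13), and 6 of 10 enterocyte, 3 of 8 epithelial and 2 of 6 leukocyte genes were called lower, with 1 epithelial and 1 leukocyte gene higher. The part of these cell types in the neuronal and glial values, S100b included, was not tested.

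**Figure D2:**
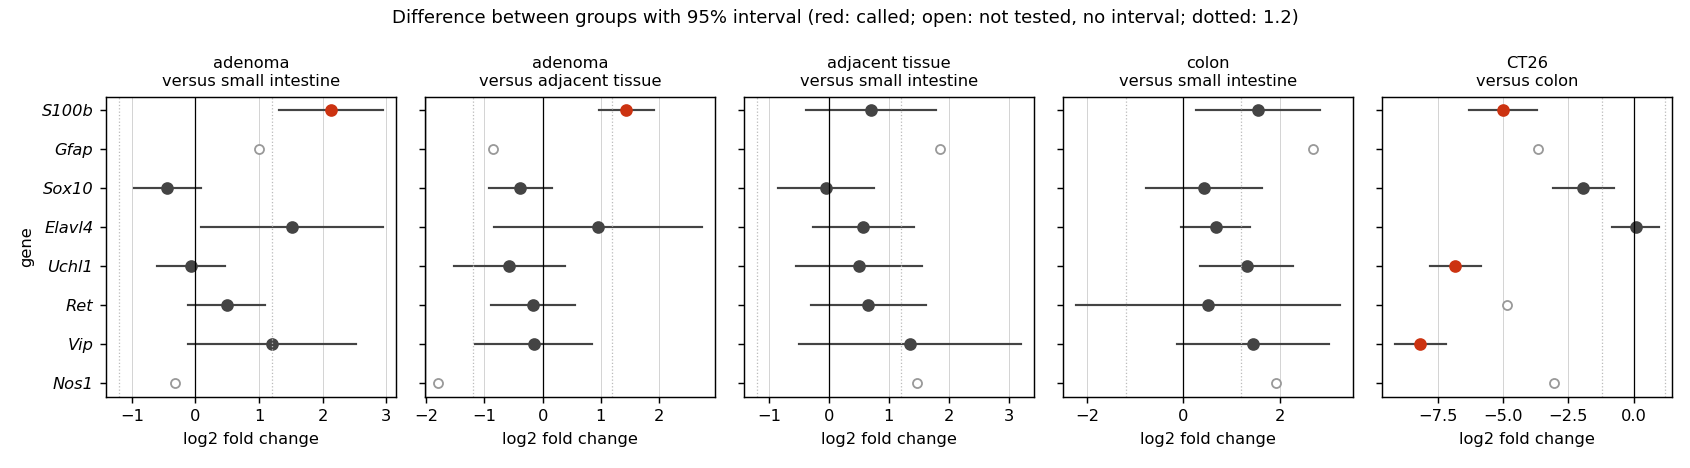
Log2 fold change of each gene in the 5 comparisons with its 95% interval from limma. Red points were called, open points were not tested and have no interval, and dotted lines mark 1.2. S100b is called in both adenoma comparisons and, with Uchl1 and Vip, in CT26 against colon. The genes called in CT26 passed the filter through colon alone, which set their direction.

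Ret, the receptor of GDNF family ligands, was -1.90, -2.02 and -2.22 in adenomas and -2.21, -2.33 and -3.06 in small intestine. The ranges overlapped narrowly, and the log2 fold change of 0.49 (SE 0.26) was not called (adjusted p of 0.144 by limma). In adjacent tissue it was -1.42 and -2.33, around the adenoma values. In colon it was -0.33 and -0.85 on replicates 1 and 2 and -4.87, not well above background, on replicate 3. That array alone set the SD of 2.49 in colon and placed the colon mean below adjacent tissue. All neighbouring tissues overlapped in the order adjacent tissue, colon, adenoma and small intestine.

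Of 12 genes of the Ret and endothelin receptor pathways, 11 were tested between adenomas and small intestine. Of these, 1 was called higher and 2 lower, where 10.9% of all probes were called in each direction, and the median was 0.26. Spry2, an inhibitor of receptor tyrosine kinase signalling, was called higher (log2 fold change of 3.18, SE 0.41, adjusted p of 0.00111 by limma), although only small intestine replicate 1 reached well above background. Edn3, the ligand of the endothelin receptor B that enteric progenitors need, was not well above background in any adenoma and was lower by at least 8.90-fold (adjusted p of 0.000157 by limma). Edn3 passed the filter through small intestine alone, which set its direction. Dok4, an adaptor protein gene of Ret, was lower with a log2 fold change of -1.84 (SE 0.17). The co-receptor genes Gfra1, Gfra2 and Gfra3 had log2 fold changes of 0.64, 0.17 and -0.97, Gfra1 without a test, and the ligand gene Gdnf had 0.31. None of these was called, and they were named after their values were seen. None of the 11 genes tested against adjacent tissue was called, and 6 were at an unadjusted p under 0.05 by limma, as were 38.1% of all probes.

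Vip was above small intestine in adenomas on every array without being called. Its level was 0.96, 0.47 and 0.57 in adenomas and -0.08, 0.39 and -1.91 in small intestine, where replicate 3 was low. The log2 fold change was 1.2 (SE 0.56, 95% interval from -0.12 to 2.52, adjusted p of 0.109 by limma). Without small intestine replicate 3 it was 0.51. Adjacent tissue was at 1.48 and 0.16, on both sides of the adenomas, and colon at 1.67, 0.83 and 0.24. Colon, adjacent tissue and adenomas overlapped.

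Nos1 was near background in most tissues. It was well above background on adjacent replicate 1 (-3.82) and colon replicates 1 and 2 (-2.61 and -3.75), and on no other array. In adenomas it lay between -6.42 and -5.30 and in small intestine between -6.12 and -5.04, both groups wholly not well above background. It was not tested in any comparison on all arrays.

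Among 16 transmitter and neuropeptide genes, 13 were tested between adenomas and small intestine, with 3 called higher and 2 lower. Of all probes tested, 10.9% were called in each direction. Npy, the gene of neuropeptide Y, was 1.04, 1.2 and 0.95 in adenomas and -2.81, -1.75 and -3.60 in small intestine (log2 fold change of 3.79, SE 0.43, adjusted p of 0.000686 by limma). Adjacent tissue lay between them, at -0.44 and -0.61, and adenomas were above it too (log2 fold change of 1.59, SE 0.16, adjusted p of 0.00553 by limma). Cartpt, the gene of the CART peptide, was 0.81, 0.67 and 0.77 in adenomas and -1.34, -1.53 and -1.48 in small intestine (2.20, SE 0.15). Ache, acetylcholinesterase, rose by 1.30 (SE 0.26). Nmu, neuromedin U, fell from between -0.97 and -0.47 to between -4.11 and -3.56 (log2 fold change of -3.23, SE 0.22), and Calcb, the beta form of calcitonin gene-related peptide, had -1.29 (SE 0.22). The median of the 13 was -0.12. Of 10 enteroendocrine genes, some of which also make peptides of neurons, 7 were called lower and their summed signal was 46.9 to 53.2 in adenomas and 279 to 291 in small intestine. Their part in the peptide genes was not tested. Ano1, a chloride channel gene used to mark interstitial cells of Cajal, the pacemaker cells beside the plexus, was called higher in adenomas than in small intestine (log2 fold change of 2.46, SE 0.18) and in adjacent tissue (2.31, SE 0.24). Kit, the other common marker, had 0.86 and 0.15, was not called and was named after its values were seen. Of the 4 genes listed for these cells, 3 were positive against small intestine (median 0.62) and 2 against adjacent tissue (median 0.05). The medians over all probes were -0.15 and -0.05.

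**Figure D3:**
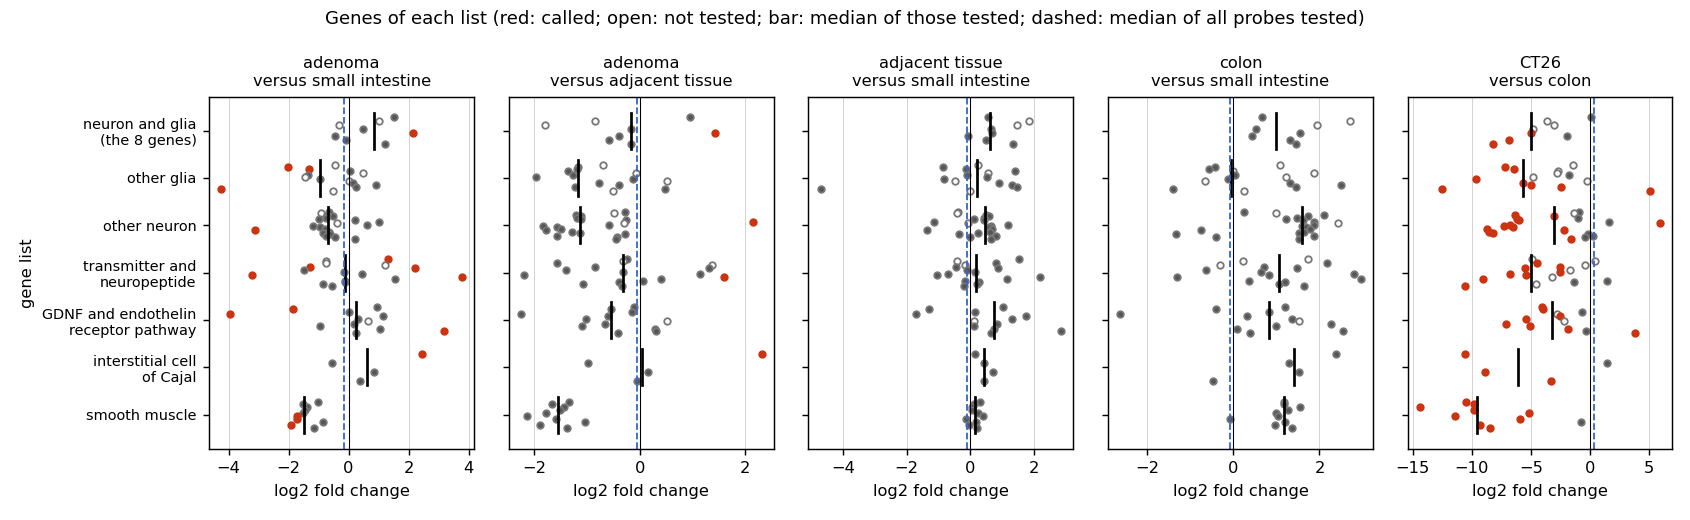
Log2 fold change of every gene of 6 lists and of the 8 genes in the 5 comparisons, on axes that differ between panels. Each point is a gene (red called, open not tested), black bars are medians of the genes tested and the dashed line is the median of all probes tested. Smooth muscle genes lie below 0 in both adenoma comparisons, and most neuronal genes lie above 0 in colon and below 0 in CT26.

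No member was called between adjacent tissue and small intestine. Of 6 tested, 5 had a positive log2 fold change, with a median of 0.61, and 0 were at an unadjusted p under 0.05 by limma. Only 0.00694% of all probes were called in this comparison. The differences of S100b (0.70, SE 0.44), Ret (0.66, SE 0.39), Elavl4 (0.57, SE 0.34) and Uchl1 (0.50, SE 0.43) had 95% intervals that held 0, as did those of Vip (1.35, SE 0.76) and Sox10 (-0.06, SE 0.33). Gfap and Nos1 were not tested. They were not well above background on any small intestine array, and were above it on 1 of the 2 adjacent arrays each.

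Between colon and small intestine no member was called on all arrays, but all 6 tested members were higher in colon, with a median of 0.99 against -0.08 over all probes. Of all probes tested, 0.00733% were called. S100b (1.55, SE 0.54) and Uchl1 (1.32, SE 0.41) were at an unadjusted p under 0.05, as were 23.5% of all probes, with adjusted p of 0.159 and 0.135 by limma. Without colon replicate 3, all 8 members were tested and all 8 were positive, with a median of 1.86. Gfap and Nos1 passed the filter through colon alone, as no small intestine array was well above background, so the filter set their direction. The array left out was below colon replicates 1 and 2 in all 8 members. On its brightest probe, Gfap was called higher without that array, at least 3.04-fold (adjusted p of 0.00441 by limma), where 3.28% of all probes were. Its probe of the other transcript was not called in this fit (at least 1.4-fold, adjusted p of 0.0172 by limma). The remaining Gfap probe, well above background on no array, was not tested. Nos1 (at least 2.49-fold, adjusted p of 0.0159), Ret (1.95, SE 0.35, adjusted p of 0.0136), Uchl1 (1.65, SE 0.35, adjusted p of 0.0233) and S100b (2.0, SE 0.47, adjusted p of 0.0299) were above 1.2 on the log2 scale and missed the limit of 0.01 by limma.

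Of the further neuronal genes, 15 of 18 tested on all arrays had a positive log2 fold change in colon (median 1.60) and 0 were called, with 15 at an unadjusted p under 0.05 by limma (23.5% of all probes). Without colon replicate 3, where 3.28% of all probes were called higher, 16 of 19 were positive (median 1.90) and 4 were called higher. These were the neurofilament genes Nefl (2.59, SE 0.32), Nefm (3.04, SE 0.32) and Nefh (1.94, SE 0.28) and the growth cone protein gene Gap43 (1.90, SE 0.29), named after their values were seen. On all arrays, only 0.00733% of all probes were called in either direction. Of the other glial genes, 0 of 8 were called there, and 4 of 8 were positive with a median of -0.05. Without colon replicate 3, 2 of 11 were called higher (median 0.51). They include a gene that passed the filter through colon alone, which set its direction. Of the transmitter and neuropeptide genes, 0 of 13 were called on all arrays (median 1.06) and 4 of 14 were higher without it (median 1.34). Of the pathway genes, 0 of 11 (median 0.83) and 1 of 12 (median 0.91) were called higher. Smooth muscle genes had medians of 1.18 and 1.30 with 0 of 10 called in either fit, and their summed signal was 747, 733 and 548 on colon replicates 1, 2 and 3 against 152 to 540 in small intestine. Their part in the difference was not tested.

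**Figure D4:**
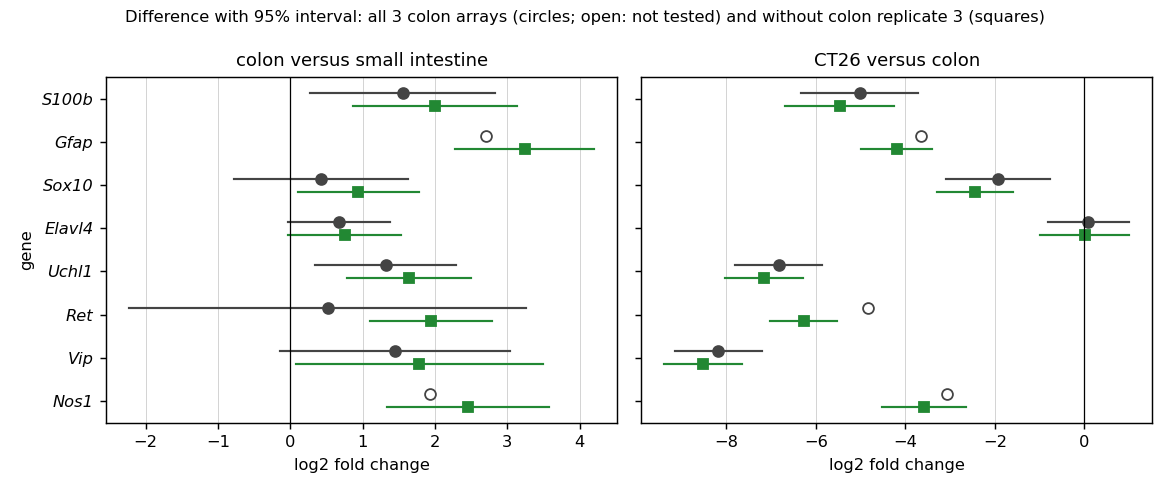
Log2 fold change with 95% interval from limma for the 8 genes, with all 3 colon arrays (circles, open where not tested) and without colon replicate 3 (squares). All 8 genes lie above 0 in colon against small intestine in both settings. Gfap and Nos1 were not tested on all arrays. Without colon replicate 3 they passed the filter through colon alone, which set their direction. The interval of Ret, from -2.23 to 3.26 on all arrays, narrows to 1.11 to 2.79 without that array. Against colon, genes not well above background on any CT26 array also passed the filter through colon alone.

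In CT26, 6 of the 8 members were not well above background on any array, and the other two, Sox10 and Elavl4, were well above it on all 3. S100b was lower than in colon by at least 24.4-fold (adjusted p of 0.000261 by limma), with its measured mean at -5.40 against -0.37. Uchl1 was lower by at least 28.2-fold (-7.00 against -0.16, adjusted p of 1.18e-05 by limma). Vip was lower by at least 59.4-fold (-7.27 against 0.91, adjusted p of 5.21e-06 by limma). These bounds set the mean of colon against the lowest signal well above background on the CT26 arrays. They were 3 of 5 members tested, and 14.9% of all probes were called lower. All 3 passed the filter through colon alone, which set their direction. Gfap, Ret and Nos1 were not tested, since colon replicate 3 was not well above background, and were lower by at least 2.92-fold, 7.80-fold and 2.42-fold. Without colon replicate 3 all 8 were tested and 7 were called lower, where 18.5% of all probes were. The 7 were Sox10 and the 6 members not well above background on any CT26 array. Those 6 were lower by at least 33.2-fold (S100b), 35.5-fold (Uchl1), 74.9-fold (Vip), 21.0-fold (Ret), 4.24-fold (Gfap) and 3.48-fold (Nos1). They too passed the filter through colon alone, which set their direction. On normexp-corrected values or the authors' table the log2 differences were smaller, down to -2.53 for S100b, -3.22 for Uchl1 and -4.26 for Vip, and each stayed called.

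Sox10 was -3.72, -3.40 and -4.13 in CT26 and -0.96, -1.66 and -2.86 in colon. The groups did not overlap, and the log2 fold change was -1.93 (SE 0.50) with an adjusted p of 0.0137 by limma, which missed the limit. Without colon replicate 3 it was -2.44 (SE 0.36, adjusted p of 0.00114 by limma) and was called. The brightest Elavl4 probe did not differ detectably, as given above with its other probe.

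The further neuronal genes were mostly lower in CT26, with 12 of 19 tested called lower and 1 higher, and a median of -3.03 against 0.37 over all probes. Not well above background on any CT26 array were Rtn1, a reticulon of neuroendocrine cells (lower by at least 203-fold), and the stathmin genes Stmn2 and Stmn3 (at least 90.2-fold and 64.4-fold), with adjusted p of 4.59e-06, 3.08e-06 and 3.56e-06 by limma. These bounds were 239-fold, 110-fold and 71.9-fold without colon replicate 3. In this list and those that follow, genes not well above background on any CT26 array passed the filter through colon alone, which set their direction. The counts called lower include such genes. Nefm was called higher, at 3.42, 2.98 and 3.03 in CT26 against -2.40, -2.0 and -4.05 in colon, the last not well above background (log2 fold change of 5.96, SE 0.53), and by 5.35 without that array. Of all probes, 21.5% were called higher and 14.9% lower. Of the transmitter and neuropeptide genes, 8 of 10 were called lower, with Tac1, the substance P gene (at least 347-fold), Penk, the enkephalin precursor gene (at least 136-fold), and Grp, gastrin-releasing peptide (at least 27.8-fold), at the head. Their bounds were 249-fold, 185-fold and 42.4-fold without colon replicate 3.

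On all arrays, 14.9% of all probes were called lower and 21.5% higher. Of the pathway genes 7 of 10 were called lower, among them Gfra2 (at least 47.0-fold), Gdnf (at least 8.43-fold) and Gfra3 (log2 fold change of -5.05, SE 0.40). Zeb2, a transcription factor gene of neural crest and of mesenchyme, was higher (3.82, SE 0.55). When colon replicate 3 was left out, Gfra2 was lower by at least 49.1-fold and Gdnf by at least 12.8-fold, and Gfra3 and Zeb2 had log2 fold changes of -5.32 and 3.65. Of the other glial genes 7 of 9 were called lower, with Pmp22, Mbp and Entpd2 at the head. Their log2 fold changes were -12.54, -9.62 and -7.21, and -12.35, -9.98 and -7.00 without that array. Pmp22 and Mbp were not well above background on any CT26 array, so their sizes rest on signals near background. Without that array they were lower by at least 1260-fold and 488-fold. Sox2, a transcription factor gene of neural progenitors and of other stem cells, was called higher, at -1.59, -1.12 and -1.61 against no colon array well above background (at least 8.30-fold, adjusted p of 2.69e-05 by limma, and at least 11.3-fold without that array). Without colon replicate 3 the counts called lower were 13 of 19 neuronal, 11 of 13 transmitter, 8 of 11 pathway and 10 of 12 glial genes. Of all probes, 18.5% were called lower without it. In both fits, genes not well above background on any CT26 array passed the filter through colon alone, which set their direction. Sox2 passed it through CT26 alone, which set its direction too. Of 8 epithelial genes all 8 were called lower in CT26, where 3 to 4 were well above background on an array, and of 10 smooth muscle genes 9 were called lower.

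Within some groups, most members were higher on the same array. Colon replicate 1 was above replicate 2 in all 8 members (median difference of 0.70 on the log2 scale, range 0.41 to 1.14) and above replicate 3 in all 8 (median 1.79), while it was above them in 58.9% and 44.1% of the 23525 probes well above background on all 11 tissue arrays. Smooth muscle genes did not go with the first of these, with 3 of 10 higher on replicate 1 than on replicate 2 and a median of -0.17. Adjacent replicate 1 was above replicate 2 in 7 of 8 members, Gfap being the exception, with a median of 0.68, and in 54.1% of all probes. Here 18 of 20 further neuronal and all 10 smooth muscle genes were higher too (medians of 0.88 and 1.92), and the part of the latter was not tested. Small intestine replicate 1 was above replicate 3 in 7 of 8 members (44.1% of all probes) and all 10 smooth muscle genes, but above replicate 2 in 5 of 8 (51.6%), and replicate 2 was above replicate 3 in 6 of 8 (40.2%). Adenoma replicate 1 was above replicate 2 in all 8 members (46.3%) and above replicate 3 in 7 of 8 (53.9%). The other neural lists did not go with this. Adenoma replicate 1 was above replicates 2 and 3 in 12 and 9 of 20 further neuronal genes and in 6 and 3 of 14 other glial genes. Adenoma replicates 2 and 3 did not differ in a common direction, as 4 of 8 members were higher on each. The counts of members include genes near background, unlike the shares over all probes. Gfap and Nos1 were well above background on no small intestine array, and Nos1 on no adenoma array. Some differences were small, the lowest between adenoma replicates 1 and 2 being 0.05.

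The genes most like each member were sought by Pearson correlation over the 11 tissue arrays, among 12653 named genes well above background on all of them. The arrays come from 4 groups and share slides, so r describes the pattern over groups as well as between samples. Uchl1 was most like Sult4a1, Slc45a1 and Lrp11 (r of 0.976, 0.973 and 0.970), with Sult4a1 a sulfotransferase gene of brain. Gfap went with Gprasp1, Ptpdc1 and Mapt, the tau gene (r of 0.970, 0.952 and 0.942), with 4 of its 11 values well above background. Nos1 went with Cmtm5, Stmn2 and Kcna6 (r of 0.940, 0.922 and 0.920), with 3 of its 11 values well above background, and Stmn2 belongs to the neuronal list. The 3 nearest to S100b were Klhl8, Apip and Ube2e2 (r of 0.971, 0.968 and 0.965), none of them in the glial list. Sox10 was nearest to Arrdc3, Tmem106b and Vsig8 (r of 0.966, 0.962 and 0.938). Elavl4, whose adenoma replicate 1 stood apart, was nearest to Fnbp1, Abca17 and Mthfsd (r of 0.970, 0.924 and 0.922). Ret was nearest to 2810459M11Rik, Zfp874b and Sirt5 (r of 0.938, 0.937 and 0.935), and these fell to 0.843, 0.888 and 0.912 without colon replicate 3. Vip was nearest to 4932416H05Rik, Efna5 and Fuz (r of 0.919, 0.916 and 0.913).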

How the data were processed

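RNA of each sample was hybridized to its own one-color Agilent SurePrint G3 Mouse array. The scanner files deposited by the authors come from Feature Extraction, and their processed signal is a background-corrected intensity that has not been scaled across arrays. A table of log2 values, also from the authors and already normalized in a way not given in the sources used here, served as an alternative. The 28 columns of spot flags and detection calls in that table were not used, nor were the fold changes and p-values of the authors' own comparisons that it holds.

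Controls and outlier spots were dropped and spots of the same probe averaged, leaving 55681 probes. Values are the log2 processed signal less the 75th percentile of its array. Precision is limited by the number of arrays, 2 or 3 a group. Groups came from the labels, and each of 5 pairs was fitted on its own arrays with limma 3.58.1 under R 4.3.3 (two-sided), at the thresholds of the study's methods. Tests of the fit on simulated data changed 200 probes per comparison by 3 on the log2 scale. For adenomas, 78.5% of these probes were detected against small intestine and 67.0% against adjacent tissue. Detection was 50.5% for colon and 38.5% for adjacent tissue, both against small intestine, and 38.0% for CT26 against colon. False calls numbered 0 in each comparison. A gene that was not called can therefore still differ.

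A fold written as "at least" compares the brighter group's mean with a floor for the dim group, which on each array is its lowest signal well above background, or the probe's own signal where that is higher. Genes named from 13 lists were up to 3 per list, comparison and direction past both thresholds, by size, together with the 3 most correlated with each member, and any other named gene is marked as chosen later. Lists of other cell types are given by counts. One gene's own values are not reported here. The members and lists were chosen with earlier results of these data known. Alternatives were normexp background correction (offset 50), quantile normalization, the authors' table, 2 other filters on dim probes, all 5 groups in 1 fit, blocks for slide or for replicate number, an adjusted p of 0.05 alone, any probe of a gene and leaving out each array. Counts of list genes without colon replicate 3 and differences within slides were added after seeing the data.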

Additional observations from a re-analysis of the deposited data

How the results depend on the processing

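Of 79 recomputed counts of members called, 61 kept the count or stayed within 1.5 times of it. Of 396 recomputed log2 fold changes, 366 kept direction and side of the threshold. Other filters on dim probes and the fit of all 5 groups leave a log2 fold change unchanged, and most of these differences were not called at first. Between colon or adjacent tissue and small intestine almost no probe was called, so a count of 0 members had little room to move. Between adenomas and small intestine the count of 1 member called became 0 without any 1 adenoma array, so that leaving out arrays gave 0 to 1. Between adenomas and adjacent tissue 1 became 0 under normexp correction, with no filter on dim probes, with all 5 groups in 1 fit, with slide as a block and without any 1 array (0 to 0). With the replicate number as a block it was 0 too, S100b having a log2 fold change of 1.502 (adjusted p of 0.0362 by limma), and with the title number as a block 0 (1.39, adjusted p of 0.0834); between adenomas and small intestine the replicate block kept S100b at 2.13 (adjusted p of 0.0047). The number of all probes called between adenomas and adjacent tissue was 1182, and 104 and 0 under these blocks. The block changed no other count of members called. The replicate numbers were not taken to pair the samples, since same-numbered arrays had correlations of -0.125 to 0.291 between their deviations from the group means and no comparison with 3 pairs had all above 0.1. Between colon and small intestine leaving out arrays gave 0 to 1 member called, 1 without colon replicate 3. Between CT26 and colon the 3 called became 6 with no filter, 0 where both groups had to be well above background on every array, which leaves out the undetected genes, and 3 to 7 on leaving out arrays, 7 without colon replicate 3. Leaving out 1 array turned the direction of some differences that were not called. The log2 fold change then ranged from -0.254 to 0.09 for Uchl1 between adenomas and small intestine, from -1.203 to 0.061 for Uchl1, -0.626 to 0.286 for Ret and -0.816 to 0.508 for Vip between adenomas and adjacent tissue, from -0.369 to 0.254 for Sox10 and -0.133 to 1.132 for Uchl1 between adjacent tissue and small intestine, from -0.006 to 0.941 for Sox10 and -0.326 to 1.945 for Ret between colon and small intestine, and from -0.265 to 0.365 for Elavl4 between CT26 and colon. Elavl4 also turned, to -0.02, with slide as a block. Where 1 adjacent array was left out, the other was assumed to vary like the second group. The causes were not tested. Signals near background limit what can be said of Gfap and Nos1 in every group.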
